A study of Mus musculus with 12 samples.

Results

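Of the 37991 gene identifiers measured in the study, 8 genes of redox, sulfur and lipid biology were taken: Gsto1, Sqor, Hmox1, Alox15, Pla2g1b, Fabp5, Lpar3 and Chst8. They had been picked because their mRNA level differed between conditional knockout (CKO) and control (Ctrl) germ cells, so their CKO values are a description of the choice and are given with no test or call. All 8 were found in the table and all 8 were among the 16708 genes that passed the filter on low counts, a filter that a gene can pass through its higher group alone. Of the 8, 6 encode enzymes, while Fabp5 encodes a binding protein and Lpar3 a receptor.

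RNA was sequenced from primordial germ cells of mouse embryos at E13.5 (embryonic day), 1 library per embryo. Ezh2 CKO females gave 2 libraries and female Ctrl 3, and Ezh2 CKO males gave 3 and male Ctrl 4, all on a C57BL/6 background. Ezh2 encodes the catalytic subunit of the Polycomb complex PRC2, whose product H3K27me3 marks silent genes. The count columns name the controls WT and the CKO embryos KO, without giving the alleles that the controls carried. The labels do not give the Cre driver, the deleted exons, the litters or the sorting marker. In bulk RNA, fewer cells of a type and less RNA per cell cannot be told apart.

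Total counts were between 26180685 and 35299206 per library, so that 1 CPM, the share of a gene scaled to library size, stood for 24.2 to 34.2 counts. Ezh2 averaged 95.6 ± 15.7 CPM in female CKO and 154 ± 10.9 CPM in female Ctrl (mean ± SD over embryos), a log2 fold change of -0.68 that passed the test (edgeR adjusted p = 0.02). It was not called without female CKO 1 (edgeR adjusted p = 0.165) or female Ctrl 3 (0.0779). In males Ezh2 averaged 84.4 ± 1.79 CPM in CKO and 122 ± 19.9 CPM in Ctrl, with a log2 fold change of -0.53 that did not pass (edgeR adjusted p = 0.0527). It passed in DESeq2 (adjusted p = 0.00777) and with either other filter on low counts (edgeR adjusted p = 0.0295 and 0.0476), and with male Ctrl 1 left out (0.0162). The 10 germ cell markers, Ddx4 and Dazl among them, were all detected and summed to 5734 to 5811 CPM in female CKO, 6069 to 6306 in female Ctrl, 5825 to 6300 in male CKO and 5772 to 6391 in male Ctrl. Summed markers of gonadal stroma reached 9.10 to 28.4 CPM in female CKO and 2.06 to 7.53 CPM in female Ctrl. Those of endothelium were at 5.77 to 7.13 CPM in female CKO and 3.07 to 4.60 CPM in female Ctrl, most of it Tek. The part of these small amounts of other cells in the female differences below was not tested.

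Glutathione transferases and heme oxygenase belong to the cell's defence against electrophiles and oxidants, many of whose genes answer to the transcription factor NRF2 (Nfe2l2). Hydrogen sulfide, a product of cysteine breakdown, is oxidized in mitochondria in a chain that starts with the enzyme made from Sqor and goes on through that of Ethe1. Phospholipases A2 free fatty acids and lysophospholipids from membranes, lipoxygenases oxygenate the freed polyunsaturated fatty acids, and lysophosphatidic acid acts on receptors such as that of Lpar3.

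The promoter windows of these genes are shown with their CpG content because CpG-rich promoters are the usual sites of PRC2 binding in mammalian cells. RefSeq's promoter table for GRCm38.p6, which gives 250 bases before and 50 after each start, matched 5 of the 8 genes. The windows of Gsto1 (chr19:47854723-47855022, plus strand), Lpar3 (chr3:146220711-146221010, plus strand) and Chst8 (chr7:34812662-34812961, minus strand) are printed 5′ to 3′, with each CpG in capitals.
Gsto1: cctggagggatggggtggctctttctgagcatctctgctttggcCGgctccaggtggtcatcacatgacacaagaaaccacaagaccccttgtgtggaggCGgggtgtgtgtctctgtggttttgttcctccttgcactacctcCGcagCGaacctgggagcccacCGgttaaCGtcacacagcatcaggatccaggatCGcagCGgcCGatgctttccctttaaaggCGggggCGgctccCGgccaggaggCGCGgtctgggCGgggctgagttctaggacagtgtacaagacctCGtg
Lpar3: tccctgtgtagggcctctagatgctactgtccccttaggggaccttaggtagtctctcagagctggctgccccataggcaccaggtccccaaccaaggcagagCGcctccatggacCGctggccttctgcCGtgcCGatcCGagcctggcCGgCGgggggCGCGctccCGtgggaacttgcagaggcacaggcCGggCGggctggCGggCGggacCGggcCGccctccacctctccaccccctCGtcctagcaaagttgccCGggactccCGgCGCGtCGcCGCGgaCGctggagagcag
Chst8: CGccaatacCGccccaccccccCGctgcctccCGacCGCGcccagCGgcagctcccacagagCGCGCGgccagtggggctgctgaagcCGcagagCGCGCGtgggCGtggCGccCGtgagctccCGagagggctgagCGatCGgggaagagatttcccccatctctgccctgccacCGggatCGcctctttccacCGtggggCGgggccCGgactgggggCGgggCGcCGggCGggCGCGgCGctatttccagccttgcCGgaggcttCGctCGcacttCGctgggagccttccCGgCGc

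The Chst8 window held 38 CpGs, at percentile 95.3 (ties at mid-rank) of the 32807 promoter windows in that table. Lpar3 had 25 CpGs and Gsto1 16, at percentiles 82.4 and 67.8, against a median of 7 over all windows. Pla2g1b (chr5:115465892-115466191) had only 2 CpGs, and Sqor (chr2:122771463-122771762) had 0. For these last 2 genes the last 25 bases of the window lie unbroken in no GENCODE transcript of the gene, so these windows may not be the promoter used. The bases nearer the start were not searched. The Chst8 window had an observed-to-expected CpG ratio of 0.902, beside a median of 0.383 over all windows. The antioxidant response element core TGACNNNGC, the E-box CACGTG and the E2F-like sequence GGCGGGAA were searched on both strands. None of the 5 windows held any of these letters, which were present in 12.4%, 7.15% and 2.19% of all windows.

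Among the redox and sulfur enzymes, Gsto1 was the least variable between embryos and was higher in CKO of both sexes. Gsto1 (ENSMUSG00000025068, chromosome 19) encodes glutathione transferase omega, which reduces thiol adducts and dehydroascorbate with glutathione. It had 57.6 and 62.9 CPM in the female CKO libraries and 10.4, 12.3 and 7.93 CPM in the female Ctrl libraries. Male CKO libraries had 80.5, 102 and 95.9 CPM, and male Ctrl libraries 22.1, 21.1, 24.0 and 17.4 CPM. Every CKO library thus lay above every control library of either sex, with a gap between the highest control and the lowest CKO embryo. Gsto1 had a log2 fold change of 2.56 (SE 0.18) in females and 2.13 (SE 0.15) in males, which is 5.91-fold and 4.39-fold on mean CPM. Gsto1 lies inside the span of Cfap43, a gene of the opposite strand, without sharing exon bases, and Cfap43 had 142 counts in female CKO, 30 in female Ctrl, 43 in male CKO and 36 in male Ctrl, all libraries of a group together. Gsto1 had 4059, 962, 8119 and 2454 counts in the same groups.

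**Figure D1:**
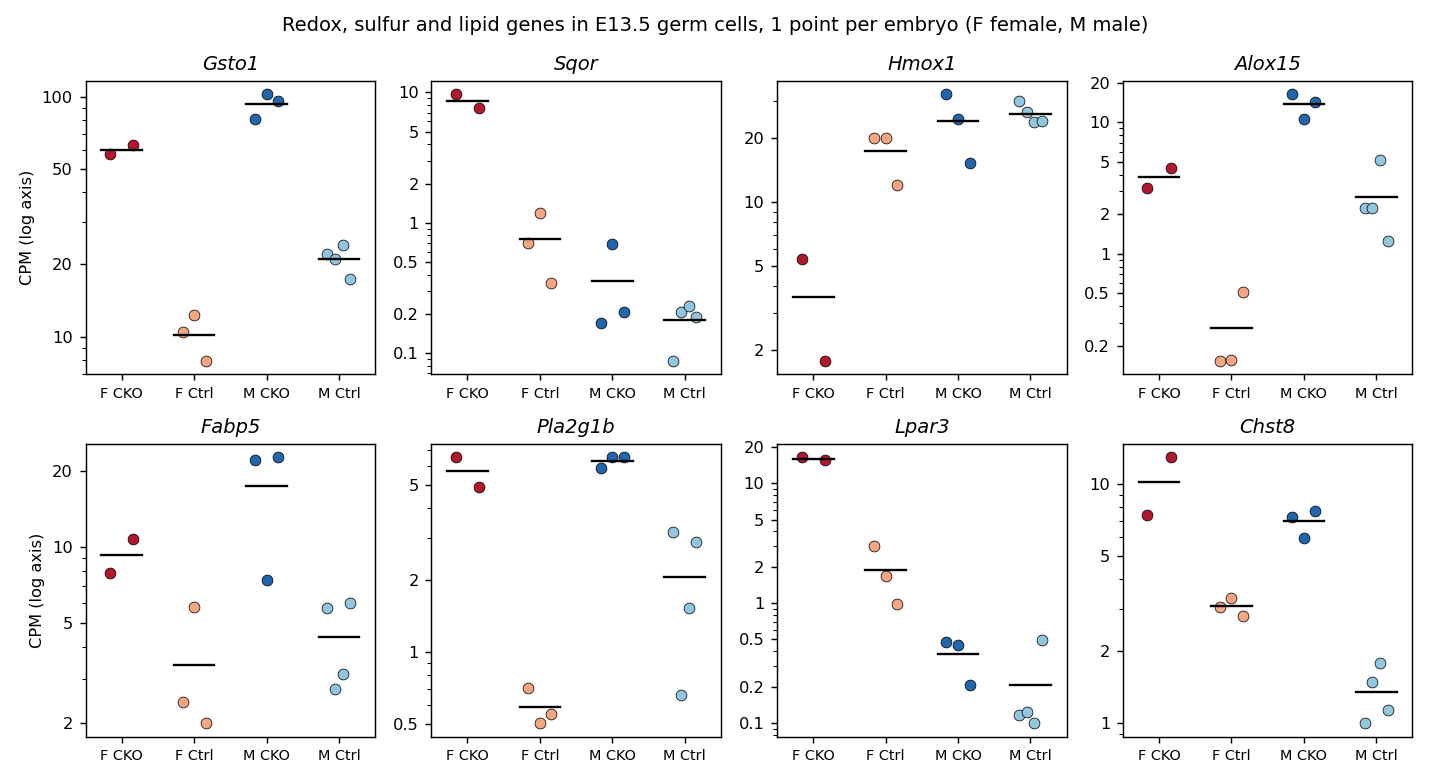
CPM of the 8 genes on log axes, 1 point per embryo and a bar at each group mean, for CKO and Ctrl females and then CKO and Ctrl males. The female groups do not overlap for any of the 8 genes, while the male groups overlap for Sqor, Hmox1 and Lpar3. Of all tested genes, 44.6% did not overlap in females and 15.0% in males, and the 8 genes were chosen on these contrasts.

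Sqor (ENSMUSG00000005803, chromosome 2), the mitochondrial sulfide:quinone oxidoreductase, had a high value in 1 group only. It had 9.66 and 7.64 CPM in female CKO, against 0.706, 1.19 and 0.343 CPM in female Ctrl. In male CKO it had 0.169, 0.694 and 0.206 CPM, against 0.0876, 0.206, 0.232 and 0.189 CPM in male Ctrl. The male groups overlapped, and only the second male CKO library stood above the male controls by more than their spread. The log2 fold change was 3.52 (SE 0.56) in females and 1.00 (SE 0.60) in males, the male value falling to 0.09 without male CKO 2. The male groups rest on 31 counts in CKO and 20 in Ctrl in all, against 584 in female CKO and 71 in female Ctrl.

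Hmox1 was the 1 gene of the 8 that was lower in CKO, and that in females. Hmox1 (ENSMUSG00000005413, chromosome 8) encodes the inducible heme oxygenase, which opens the heme ring and releases iron. It had 5.36 and 1.78 CPM in female CKO, against 20.1, 20.1 and 12.04 CPM in female Ctrl. In male CKO it had 32.2, 24.7 and 15.3 CPM, against 29.9, 26.5, 23.8 and 24.0 CPM in male Ctrl. Both female CKO libraries lay below all 10 others, whereas the male CKO libraries ranged on both sides of the male controls. Hmox1 differed by a log2 fold change of -2.28 (SE 0.42) in females, with a range from -3.29 without female CKO 1 to -1.69 without female CKO 2, and -0.11 (SE 0.31) in males. Hmox1 is abundant in macrophages, whose 10 markers summed to 2.62 to 3.54 CPM in female CKO and 2.27 to 10.8 CPM in female Ctrl. The highest sum was that of female Ctrl 2, and Csf1r and Ptprc were at 0 in at least 1 library. The part of macrophage RNA in the Hmox1 difference was not tested.

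Of the lipid enzymes, Alox15 had the largest log2 difference of the 8 genes in females. Alox15 (ENSMUSG00000018924, chromosome 11) encodes a lipoxygenase that oxygenates arachidonic and linoleic acid. It had 3.16 and 4.51 CPM in female CKO, against 0.154, 0.156 and 0.515 CPM in female Ctrl. Male CKO libraries had 16.3, 10.5 and 14.3 CPM, against 2.25, 2.23, 5.20 and 1.25 CPM in male Ctrl. Neither sex showed overlap, and the CKO females only reached the level of the male controls. The log2 fold change was 3.81 (SE 0.59) in females and 2.32 (SE 0.43) in males, and the female value was 4.61 without female Ctrl 3. Alox15 is also known from maturing red cells, whose 7 markers summed to 16.1 and 1.14 CPM in the female CKO libraries and 0.0921 to 2.03 CPM in female Ctrl. In males these markers summed to 17.9, 0.659 and 0.344 CPM in the CKO libraries and 0.0993 to 1.43 CPM in Ctrl. Male CKO 1, with the highest of these sums, also had the most Alox15 of the male CKO libraries, whereas in female CKO the library with the higher sum had less Alox15 than the other. The part of red cell RNA in the Alox15 difference was not tested.

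Pla2g1b (ENSMUSG00000029522, chromosome 5), a secreted phospholipase A2 best known from the pancreas, was at a like level in CKO germ cells of both sexes. It had 6.53 and 4.90 CPM in female CKO, against 0.706, 0.50 and 0.549 CPM in female Ctrl. In male CKO it had 5.85, 6.52 and 6.54 CPM, against 3.18, 0.660, 1.52 and 2.88 CPM in male Ctrl. The CKO libraries lay above all controls of both sexes, and of the 4 groups the male controls had the widest spread. Its log2 fold change was 3.28 (SE 0.50) in females and 1.60 (SE 0.40) in males.

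Of the lipid-binding protein and the receptor, Fabp5 was higher in CKO of both sexes and varied widely among the male CKO embryos. Fabp5 (ENSMUSG00000027533, chromosome 3) encodes a carrier of fatty acids and retinoic acid in the cytosol. It had 7.90 and 10.7 CPM in female CKO, against 2.43, 5.79 and 1.99 CPM in female Ctrl. In male CKO it had 22.2, 7.39 and 22.7 CPM, against 5.72, 2.72, 3.14 and 5.98 CPM in male Ctrl. The groups of neither sex overlapped, although male CKO 2 stood close to the controls and far from the other two male CKO libraries. The log2 fold change was 1.45 (SE 0.52) in females, or 2.09 without female Ctrl 2, and 1.98 (SE 0.44) in males. Fabp5 has 5 processed pseudogenes at 93.6% to 98.3% identity, so how its reads were shared among copies is uncertain. Of these, Gm6166 and Gm13998 had at most 4 counts in any library, and the other 7 genes had no copy of at least 90% identity over 200 bases.

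Lpar3 (ENSMUSG00000036832, chromosome 3), a receptor for lysophosphatidic acid, followed Sqor in being high in female CKO alone. It had 16.6 and 15.7 CPM in female CKO, against 3.01, 1.69 and 0.995 CPM in female Ctrl. Male CKO libraries had 0.474, 0.451 and 0.206 CPM, against 0.117, 0.124, 0.0993 and 0.492 CPM in male Ctrl. All males lay below all females, and the male groups overlapped through male Ctrl 4. The log2 fold change was 3.08 (SE 0.53) in females and 0.88 (SE 0.59) in males, or 1.70 in males without male Ctrl 4. Between CKO embryos, female libraries averaged 42.8 times the male level for Lpar3 and 24.3 times for Sqor.

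Chst8 (ENSMUSG00000060402, chromosome 7) encodes a sulfotransferase that adds sulfate to the terminal N-acetylgalactosamine of glycoprotein hormones in the pituitary. It had 7.41 and 13.0 CPM in female CKO, against 3.07, 3.35 and 2.81 CPM in female Ctrl. The male CKO libraries had 7.28, 5.93 and 7.74 CPM, against 0.993, 1.49, 1.79 and 1.14 CPM in male Ctrl. All CKO libraries lay above all controls of both sexes. The log2 fold change was 1.73 (SE 0.31) in females, ranging from 1.28 without female CKO 2 to 2.08 without female CKO 1, and 2.37 (SE 0.27) in males.

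Across the 8 genes the median log2 fold change was 2.82 in female CKO and 1.79 in male CKO, beside 0.00 and -0.02 over all tested genes. The female groups did not overlap for 8 of the 8, as for 44.6% of all tested genes, with 22.2% higher and 22.3% lower. The male groups did not overlap for 5 of 8, all higher, as for 15.0% of all tested genes, with 8.01% higher and 6.97% lower. The genes had been chosen on these contrasts, so nothing is read from these counts.

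The CKO differences of females and males are set against each other as a description, since both contrasts had entered the choice. The female minus male difference of log2 fold changes was 2.53 (SE 0.83) for Sqor, 2.20 (SE 0.81) for Lpar3 and -2.17 (SE 0.51) for Hmox1. It was 1.67 (SE 0.64) for Pla2g1b and 1.48 (SE 0.73) for Alox15, 0.43 (SE 0.24) for Gsto1, -0.54 (SE 0.69) for Fabp5 and -0.64 (SE 0.42) for Chst8. Over all 16708 genes, edgeR called 0 for such a difference, with 1401 at an unadjusted p under 0.05. DESeq2, run on 27180 genes without this filter on low counts, called 51.

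**Figure D2:**
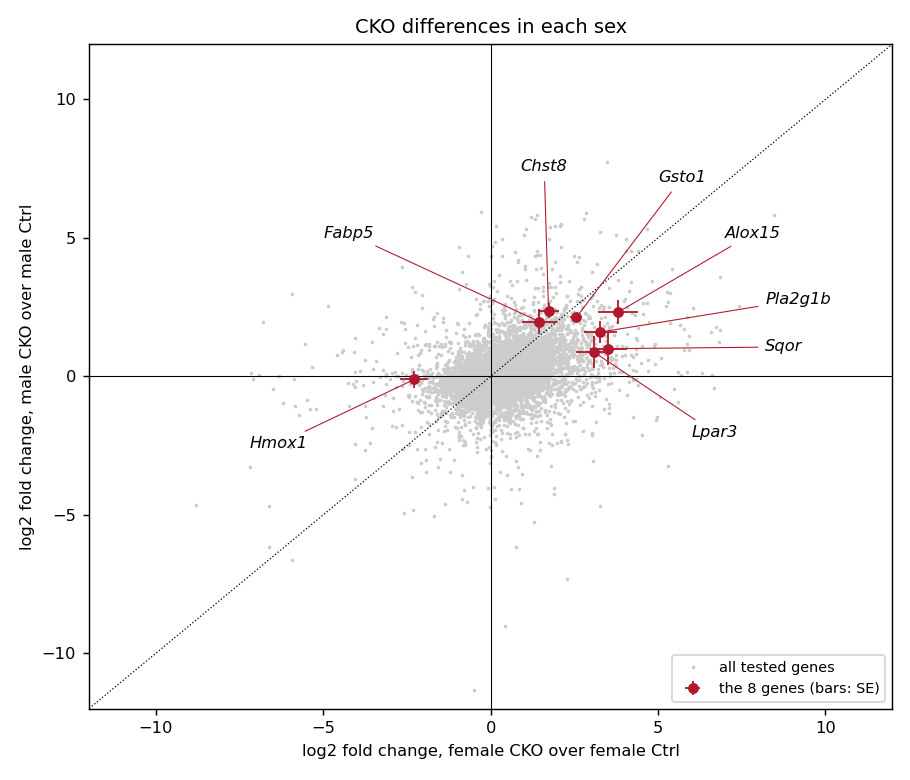
Log2 fold change of CKO over Ctrl in females (horizontal axis) and males (vertical axis) for all tested genes in grey and the 8 genes in red with SE bars, and a dotted line of equal change. Gsto1 (2.56 and 2.13) and Chst8 (1.73 and 2.37) lie near the line, whereas Sqor (3.52 and 1.00), Lpar3 (3.08 and 0.88) and Hmox1 (-2.28 and -0.11) lie nearer the horizontal axis.

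Per kilobase of exon, the scale on which genes can be compared, Gsto1 was at 29.8 CPM per kb in female CKO and 5.04 in female Ctrl, and at 45.9 in male CKO and 10.5 in male Ctrl. Hmox1 was at 2.04 CPM per kb in female CKO and 9.93 in female Ctrl, where it was the highest of the 8. In male CKO Hmox1 was at 13.8 CPM per kb, and in male Ctrl at 14.9, again the highest of the 8. Sqor was the lowest of the 8 in both male groups, at 0.0873 CPM per kb in male CKO and 0.0438 in male Ctrl, and Alox15 the lowest in both female groups, at 1.56 in CKO and 0.112 in Ctrl. Gsto1 alone of the 8 had a variation between embryos below that of the typical gene, with a biological coefficient of variation of 0.15 at percentile 33.5. The other 7 ranged from 0.254 for Chst8 to 0.428 for Sqor, at percentiles 57.6 to 81.5.

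The comparison of female with male control embryos had not been used to choose the genes, and here they were tested with all others. Lpar3, Sqor and Chst8 were higher in female than in male control germ cells, and Alox15, Pla2g1b and Gsto1 were lower. Of all tested genes, 39.5% were called in this comparison, 20.1% higher and 19.4% lower, so a count of 6 in 8 stands beside a broad difference between the sexes. Summed markers of Sertoli cells were at 13.8 to 17.2 CPM in female Ctrl and 18.3 to 45.0 CPM in male Ctrl, and those of pregranulosa cells at 19.5 to 25.0 CPM in female Ctrl and 3.56 to 5.43 CPM in male Ctrl. The list of mesonephric epithelium was at 8.91 to 23.3 CPM in female Ctrl and 95.2 to 113 CPM in male Ctrl, with Lhx1 holding most of its counts over all libraries. Over all libraries Aard had 4434 counts in the Sertoli list, beside 905 for Gata4 and 746 for Sox9. In the pregranulosa list Lhx2 had 1911, beside 768 for Bmp2 and 64 for Foxl2. Pax2, of the mesonephric list, had 9 counts. These sums thus lean on single genes and do not measure amounts of cells. The part of RNA from such cells in the differences between control sexes was not tested. The largest was Alox15, which averaged 0.275 ± 0.208 CPM in female Ctrl and 2.73 ± 1.71 CPM in male Ctrl (a log2 fold change of -3.32 with an SE of 0.55, edgeR adjusted p = 0.000371). Lpar3 averaged 1.90 ± 1.02 CPM in female Ctrl and 0.208 ± 0.190 CPM in male Ctrl (a log2 fold change of 3.20 with an SE of 0.53, edgeR adjusted p = 0.000376). For neither gene did the groups overlap, as for 43.4% of all tested genes. The 2 log2 fold changes reached -4.10 and 4.03 when 1 library was left out, female Ctrl 3 for Alox15 and male Ctrl 4 for Lpar3.

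Sqor was higher in female Ctrl, at 0.746 ± 0.424 CPM, than in male Ctrl, at 0.179 ± 0.0632 CPM (a log2 fold change of 2.06 with an SE of 0.56, edgeR adjusted p = 0.00958), a call that was lost without female Ctrl 2 (1.55, edgeR adjusted p = 0.0633). Pla2g1b was lower in female Ctrl, at 0.585 ± 0.108 CPM, than in male Ctrl, at 2.06 ± 1.18 CPM (a log2 fold change of -1.81 with an SE of 0.45, edgeR adjusted p = 0.00595), although the groups overlapped by the male library at 0.660 CPM. Chst8 was higher, at 3.08 ± 0.267 CPM in female Ctrl and 1.35 ± 0.357 CPM in male Ctrl (a log2 fold change of 1.19 with an SE of 0.27, edgeR adjusted p = 0.00375). Gsto1 was lower, at 10.2 ± 2.18 CPM in female Ctrl and 21.2 ± 2.79 CPM in male Ctrl (a log2 fold change of -1.05 with an SE of 0.16, edgeR adjusted p = 0.00019). Hmox1 (a log2 fold change of -0.58 with an SE of 0.32, edgeR adjusted p = 0.162) and Fabp5 (-0.37, SE 0.45, 0.55) did not pass. Hmox1 passed when only the groups compared were fitted (edgeR adjusted p = 0.0426), and Fabp5 was at -1.0 without female Ctrl 2. Gsto1, Alox15, Pla2g1b, Lpar3 and Chst8 were called under each of the 14 alternatives. The female Ctrl libraries serve both in this comparison and in that of the CKO females, so the values of the 2 are not independent.

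**Figure D3:**
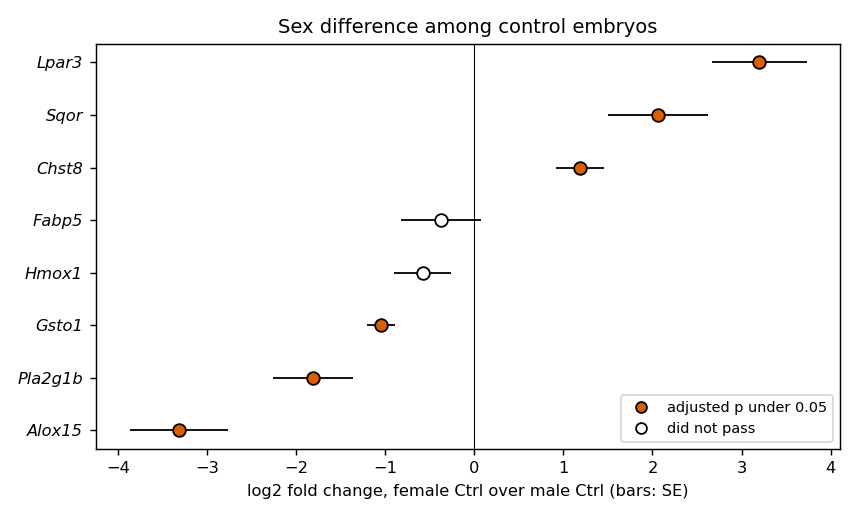
Log2 fold change of female Ctrl over male Ctrl with SE bars for the 8 genes, filled where the edgeR adjusted p was under 0.05. Lpar3, Sqor and Chst8 lie to the right of 0, and Alox15, Pla2g1b and Gsto1 to the left.

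Other genes of the same pathways were tested in both CKO comparisons, in lists that leave the 8 genes out. In females 3.01% of all tested genes were called higher and 4.16% lower, or 7.17% in either direction, and in males 1.20% higher and 0.497% lower, or 1.70% in either direction. The counts of each list stand beside these shares, and no list was tested as a whole. Calls described as kept or lost refer to leaving out each library in turn, unless another setting is named. Of 21 glutathione transferases tested, 4 rose in female CKO and 0 fell, with a median log2 fold change of 0.54, and 1 rose in male CKO and 0 fell, with a median of 0.43. The male count was 2 under both other scalings and both other filters and 4 in DESeq2, where Gstp1 (adjusted p = 0.00417), Mgst3 (0.0187) and Gstm7 (0.0253) also passed. Gsto2, the second omega-class transferase, rose in both sexes and begins 744 bases after the end of Gsto1 in the GRCm38 annotation. It averaged 17.4 ± 2.33 CPM in female CKO and 5.23 ± 0.850 CPM in female Ctrl (a log2 fold change of 1.73 with an SE of 0.26, edgeR adjusted p = 0.0045), and stayed called whichever female library was left out. In males it averaged 12.6 ± 2.01 CPM in CKO and 4.74 ± 1.19 CPM in Ctrl (a log2 fold change of 1.41 with an SE of 0.22, edgeR adjusted p = 0.0102), a call lost without male CKO 2 (0.0679) or male CKO 3 (0.0534). The other three that rose in females were Gstm7 (1.24, edgeR adjusted p = 0.0293), Gstp2 (1.08, 0.0446) and the microsomal Mgst3 (0.74, 0.0233). Gstp2 was lost whichever female library was left out (edgeR adjusted p 0.0554 to 0.209) and is nearly identical to Gstp1, so its counts are uncertain. Gstm7 kept its call only without female Ctrl 1 (edgeR adjusted p = 0.0458) and Mgst3 only without female Ctrl 3 (0.0419).

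In the NRF2 pathway, Gclc and Nfe2l1 fell in female CKO and Me1 rose in male CKO. Of 25 tested genes of the NRF2 pathway, 0 rose and 2 fell in female CKO, with a median log2 fold change of -0.01, and 1 rose and 0 fell in male CKO, with a median of 0.09. The 2 that fell were Gclc, the catalytic subunit of the first enzyme of glutathione synthesis (-0.49, edgeR adjusted p = 0.0413), and Nfe2l1, an NRF2-related factor (-0.73, 0.0245). Gclc was lost whichever female library was left out (edgeR adjusted p 0.0897 to 0.23) and under median-of-ratios or library-size scaling (0.0515 and 0.0909). Nfe2l1 kept its call only without female CKO 1 (edgeR adjusted p = 0.0219) and lost it under library-size scaling (0.0504). Me1, the cytosolic malic enzyme that makes NADPH, was the 1 that rose in males, at 51.9 ± 5.88 CPM in CKO and 23.6 ± 5.15 CPM in Ctrl (a log2 fold change of 1.14 with an SE of 0.16, edgeR adjusted p = 0.00545). In females Me1 was at 0.64 (edgeR adjusted p = 0.0624), and passed under library-size scaling (0.0493), without a filter on low counts (0.0366), in the groups compared alone (0.0308) and in DESeq2 (adjusted p = 0.0217).

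Nqo1, a quinone reductase that is a standard NRF2 target, was at -0.94 in females (edgeR adjusted p = 0.108) and -0.92 in males (0.111), and passed in DESeq2 in both (adjusted p = 0.0478 and 0.0249). Nfe2l2 itself was at 0.21 in females (edgeR adjusted p = 0.414) and 0.50 in males (0.0606). The male value of Nfe2l2 passed under library-size scaling (edgeR adjusted p = 0.0449), without a filter on low counts (0.0299), with male CKO 1 left out (0.0129) and in DESeq2 (adjusted p = 0.00921). Bach1, a repressor of Hmox1, was at -0.38 in females (edgeR adjusted p = 0.474) and -0.03 in males (0.967). Of 24 genes of glutathione synthesis and peroxidases, Gclc alone was called in females and 0 in males, with medians of 0.05 and 0.07. Gpx4, the peroxidase that reduces lipid hydroperoxides in membranes, was at -0.15 in females (edgeR adjusted p = 0.389) and -0.01 in males (0.979). Of 22 superoxide, peroxide and thioredoxin genes, 1 was called in females, the methionine sulfoxide reductase Msrb3 (2.98, edgeR adjusted p = 0.0461), and 0 in males, with medians of -0.07 and 0.14. The Msrb3 call was lost whichever female library was left out (edgeR adjusted p 0.0916 to 0.232). DESeq2 called 3 of the list higher and 1 lower in males. One of them was Cat, the catalase gene, at 0.50 in DESeq2 (adjusted p = 0.00456), which also passed in edgeR under median-of-ratios scaling (adjusted p = 0.0464), with either other filter (0.0262 and 0.0456) and without male Ctrl 1 (0.0178).

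Heme and sulfide genes next to Hmox1 and Sqor in their pathways moved in a few cases. Of 28 heme and iron genes, 3 rose and 2 fell in female CKO, and 2 rose and 0 fell in male CKO, with medians of -0.05 and 0.03. Hmox2, the constitutive heme oxygenase, rose to 115 ± 7.63 CPM in female CKO, against 77.7 ± 0.644 CPM in female Ctrl (a log2 fold change of 0.56 with an SE of 0.11, edgeR adjusted p = 0.00946). It was not called without female CKO 1 (edgeR adjusted p = 0.0755). In males Hmox2 was at 0.39 (edgeR adjusted p = 0.0475), a call kept only without male CKO 1 or male Ctrl 2, and lost without a filter on low counts (0.0599) and in the groups compared alone (0.117). Pgrmc1, a heme-binding membrane protein, rose by 1.11 on the log2 scale in females (edgeR adjusted p = 0.0127) and by 1.08 in males (0.017). Without female CKO 1 the Pgrmc1 adjusted p was 0.119, and without male CKO 2 or male CKO 3 it was 0.0739 or 0.0755 (edgeR).

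Alas1, the first enzyme of heme synthesis, also rose in females (0.52, edgeR adjusted p = 0.0394), but kept its call only without female Ctrl 1 and lost it without a filter on low counts (0.0517) and in the groups compared alone (0.0525). It was named after its values were seen. The 2 that fell in females were Tfrc, the transferrin receptor (-0.66, edgeR adjusted p = 0.022), and Abcb10, a mitochondrial transporter (-0.93, 0.0286). Tfrc failed the test without female CKO 1 (edgeR adjusted p = 0.112), female CKO 2 (0.123) or female Ctrl 3 (0.0851), and Abcb10 whichever female library was left out (0.0638 to 0.177). Blvrb, a biliverdin reductase, was at 0.57 in females (edgeR adjusted p = 0.337) and 0.37 in males (0.575).

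Of 23 sulfide and sulfur amino acid genes, 1 rose and 1 fell in female CKO, and 2 rose and 0 fell in male CKO, with medians of -0.09 and 0.11. Ethe1, the persulfide dioxygenase that acts after Sqor, rose in both sexes. It averaged 30.3 ± 4.45 CPM in female CKO and 13.6 ± 3.52 CPM in female Ctrl (a log2 fold change of 1.16 with an SE of 0.21, edgeR adjusted p = 0.00767), a call lost without female CKO 1 (0.0664). In males Ethe1 averaged 19.2 ± 1.20 CPM in CKO and 9.36 ± 0.785 CPM in Ctrl (a log2 fold change of 1.03 with an SE of 0.18, edgeR adjusted p = 0.0139), a call lost without male CKO 2 (0.0679) or male CKO 3 (0.0737). Tst, the thiosulfate sulfurtransferase of the same chain, was at -0.23 in females (edgeR adjusted p = 0.668) and 0.13 in males (0.821). Csad, of taurine synthesis, fell in females (-0.57, edgeR adjusted p = 0.0362), a call lost whichever female library was left out (0.0635 to 0.227), under library-size scaling (0.0914), without a filter on low counts (0.0562) and in the groups compared alone (0.0555). Papss1, which makes the sulfate donor that sulfotransferases use, rose in males (0.48, edgeR adjusted p = 0.0416), kept only without male Ctrl 2 and lost without a filter on low counts (0.0507) and in the groups compared alone (0.127).

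Among lipoxygenase and prostanoid genes, Ephx2, Acsl4 and Lta4h rose in both sexes. Of 25 genes tested, 4 rose and 0 fell in female CKO, with a median log2 fold change of 0.55, and 3 rose and 0 fell in male CKO, with a median of 0.45. The female count was 0 without female CKO 1, and the male count 1 without male CKO 2. Ephx2, the soluble epoxide hydrolase that opens fatty acid epoxides, averaged 30.1 ± 6.40 CPM in female CKO and 12.5 ± 2.71 CPM in female Ctrl (a log2 fold change of 1.26 with an SE of 0.24, edgeR adjusted p = 0.00942), a call lost without female CKO 1 (0.0942). In males it averaged 9.87 ± 0.0736 CPM in CKO and 3.67 ± 0.882 CPM in Ctrl (a log2 fold change of 1.43 with an SE of 0.21, edgeR adjusted p = 0.00545) and stayed called whichever male library was left out. Acsl4, which activates arachidonic acid for membrane lipids, rose by 1.12 on the log2 scale in females (edgeR adjusted p = 0.0277) and by 1.37 in males (0.0162). Acsl4 failed the test without female CKO 1 (edgeR adjusted p = 0.276), female Ctrl 2 (0.0692) or female Ctrl 3 (0.0955) in females, and without male CKO 2 (0.0785) in males. Lta4h, the leukotriene A4 hydrolase, rose by 0.62 in females (edgeR adjusted p = 0.0198) and 0.64 in males (0.0195). It kept its female call only without female Ctrl 2 (edgeR adjusted p = 0.0439), and its male call was lost without male CKO 2 (0.125) or male CKO 3 (0.0649) and in the groups compared alone (0.0713).

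Alox12, a second arachidonate lipoxygenase, averaged 2.92 ± 1.06 CPM in female CKO and 0.291 ± 0.265 CPM in female Ctrl (a log2 fold change of 3.29 with an SE of 0.90, edgeR adjusted p = 0.043), a call lost whichever female library was left out (0.0558 to 0.225). In males Alox12 was at 0.252 ± 0.0878 CPM in CKO and 0.142 ± 0.152 CPM in Ctrl (log2 fold change 0.87, edgeR adjusted p = 0.691). Alox12e, the lipoxygenase gene next to Alox15 and 21524 bases from it, averaged 0.281 ± 0.0994 CPM in female CKO and 0.0542 ± 0.0486 CPM in female Ctrl (log2 fold change 2.31, edgeR adjusted p = 0.114). In males Alox12e averaged 3.72 ± 0.711 CPM in CKO and 1.13 ± 0.628 CPM in Ctrl (log2 fold change 1.70, edgeR adjusted p = 0.0903), a value that passed in DESeq2 (adjusted p = 0.0125). Like Alox15, it was lower in female Ctrl than in male Ctrl (a log2 fold change of -4.32 with an SE of 0.70, edgeR adjusted p = 0.000338).

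**Figure D4:**
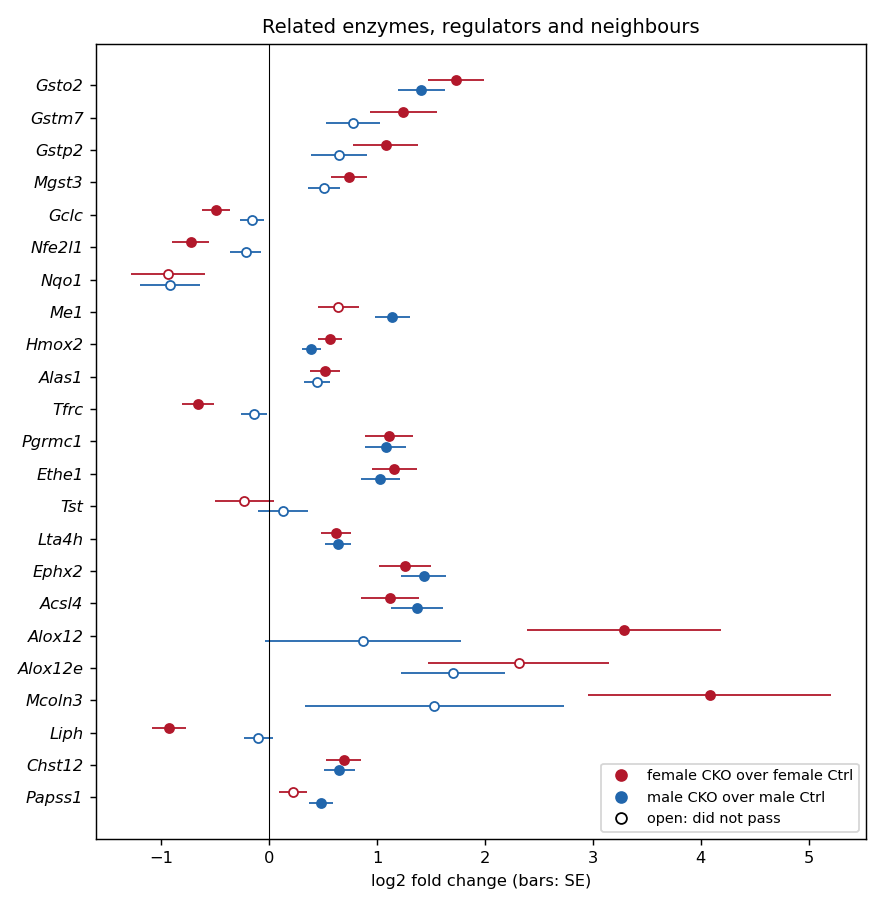
Log2 fold change of CKO over Ctrl with SE bars for a selection of other pathway genes and neighbours, red for females and blue for males. Points are filled where the edgeR adjusted p was under 0.05. Of the pathway genes called in female CKO, the selection leaves out Abcb10, Csad, Acsl3, Hs6st1 and Pla2g4d, which were lower. It also leaves out Msrb3, Plpp1 and S1pr1, which were higher, so the balance of directions cannot be read from it. Gsto2, Hmox2, Pgrmc1, Ethe1, Lta4h, Ephx2, Acsl4 and Chst12 are filled and to the right of 0 in both sexes.

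In the remaining lipid lists Liph and Acsl3 fell, and Plpp1 and S1pr1 rose, in female CKO. Of 19 phospholipases A2, 0 rose and 1 fell in female CKO and 0 were called in male CKO, with medians of 0.14 and 0.03. The 1 that fell, Pla2g4d, had 1 count in female CKO and 24 counts in female Ctrl (ratio 0.0579, exact 95% interval from 0.00141 to 0.355 for counting error only), and kept its call only without female Ctrl 3. It was also lost under library-size scaling (edgeR adjusted p = 0.0519) and in DESeq2 (adjusted p = 0.0732). Pla2g12a, another secreted phospholipase A2, was at 0.24 in females (edgeR adjusted p = 0.512) and 0.51 in males (0.152, and 0.0484 without male Ctrl 2).

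Of 20 lysophospholipid genes, 2 rose and 1 fell in female CKO and 0 were called in male CKO, with medians of 0.17 and -0.02. Liph, a phospholipase that makes lysophosphatidic acid, fell to 37.0 ± 0.993 CPM in female CKO, against 70.6 ± 14.4 CPM in female Ctrl (a log2 fold change of -0.93 with an SE of 0.16, edgeR adjusted p = 0.00743), a call lost without female CKO 1 (0.0535). The 2 that rose were Plpp1, a lipid phosphatase (0.86, edgeR adjusted p = 0.0316), and S1pr1, a receptor for sphingosine 1-phosphate (2.98, 0.04). Plpp1 kept its call only without female Ctrl 2 and lost it without a filter on low counts (edgeR adjusted p = 0.0621), and S1pr1 was lost whichever female library was left out (0.0694 to 0.23). Lpar1, another receptor for lysophosphatidic acid, was at 19.8 ± 2.51 CPM in female CKO and 14.0 ± 3.22 CPM in female Ctrl, and at 3.20 ± 1.01 CPM in male CKO and 2.44 ± 0.453 CPM in male Ctrl. Its log2 fold changes of 0.49 and 0.39 did not pass (edgeR adjusted p = 0.314 and 0.475). Enpp2, the secreted enzyme that makes lysophosphatidic acid, was at 1.61 in females (edgeR adjusted p = 0.0785, and 0.0458 in the groups compared alone) and -0.06 in males (0.959).

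Of 24 fatty acid binding and uptake genes, 1 rose and 1 fell in female CKO, and 1 rose and 0 fell in male CKO, with medians of 0.19 and 0.16. The 1 that rose in each sex was Acsl4, and the 1 that fell in females was Acsl3, another acyl-CoA synthetase (-0.54, edgeR adjusted p = 0.0153), lost without female CKO 1 (0.0506) or female CKO 2 (0.131). Fabp3, a carrier of the same family as Fabp5, was at -0.11 in females (edgeR adjusted p = 0.9) and 0.56 in males (0.399). Of 34 genes of glycan sulfation, 1 rose and 1 fell in female CKO, and 2 rose and 0 fell in male CKO, with medians of 0.16 and -0.02. Chst12, a chondroitin sulfotransferase, rose by 0.69 on the log2 scale in females (edgeR adjusted p = 0.0267) and by 0.65 in males (0.0358), and Papss1 was the other in males. Chst12 kept its female call only without female Ctrl 1, its male call only without male Ctrl 2, and lost the male call in the groups compared alone (edgeR adjusted p = 0.06). Hs6st1, a heparan sulfotransferase, fell in females (-0.77, edgeR adjusted p = 0.0266), kept only without female Ctrl 1. Chst9, which like Chst8 sulfates N-acetylgalactosamine, had at most 0.362 CPM in any group mean and did not pass in either sex (edgeR adjusted p = 0.896 and 0.899). B4galnt3 and B4galnt4, which add the N-acetylgalactosamine that Chst8 sulfates, were at -1.49 and -0.51 in females (edgeR adjusted p = 0.0928 and 0.328) and at -0.33 and -0.05 in males (0.731 and 0.949), with B4galnt3 passing in females in DESeq2 (adjusted p = 0.0242).

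Of the 16 nearest tested neighbours of the 8 genes in the GRCm38 order, Gsto2 was called in both sexes and Mcoln3, a cation channel gene 79157 bases before Lpar3, in females. Mcoln3 averaged 1.50 ± 0.470 CPM in female CKO and 0.0842 ± 0.0896 CPM in female Ctrl (a log2 fold change of 4.08 with an SE of 1.13, edgeR adjusted p = 0.0452), a call lost whichever female library was left out (0.0633 to 0.206). Fabp9, of the same family as Fabp5 and 177014 bases after it, was at 2.56 in females (edgeR adjusted p = 0.0624) and 2.01 in males (0.101). It passed in females without a filter on low counts (edgeR adjusted p = 0.0381) or with female Ctrl 2 left out (0.0452), and in DESeq2 in females (adjusted p = 0.0206) and males (0.03). Cfap43, which spans Gsto1 and is named after its values were seen, was at 2.71 in females (edgeR adjusted p = 0.0857) and 0.75 in males (0.7), the female value passing in the groups compared alone (0.013) and in DESeq2 (adjusted p = 0.0416). The other 13 neighbours, among them Sfr1 before Gsto1 and Sema6d near Sqor, were not called in either CKO comparison.

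Genes whose log2 CPM ran most nearly parallel to each of the 8 over the 12 libraries are given as a description, since the libraries share their groups. Gsto1 was matched best by Acot7 (Pearson r = 0.964), an acyl-CoA thioesterase, and Mfsd1 (0.963). Acot7 averaged 55.4 ± 1.31 CPM in female CKO and 29.0 ± 6.05 CPM in female Ctrl, and 60.4 ± 3.86 CPM in male CKO and 40.1 ± 2.11 CPM in male Ctrl. Hmox1 was matched by Tnpo2 (0.974) and Lmnb2 (0.971), Lpar3 by Mob1b (0.973) and Celf2 (0.971), and Sqor by Kbtbd6 (0.966) and Ccdc122 (0.941). Pla2g1b was matched by Upp1 (0.975) and Ifi35 (0.946), Alox15 by Usp26 (0.929) and Exoc6 (0.926), Chst8 by Tom1l1 (0.970) and Fgl1 (0.949), and Fabp5 by Tcea3 (0.929) and Syngr1 (0.887). In females every matching gene but Syngr1 and Fgl1 differed by less than its partner on the log2 scale. Lmnb2, matched to Hmox1, averaged 27.5 ± 6.07 CPM in female CKO and 54.2 ± 1.94 CPM in female Ctrl. Fgl1, a secreted fibrinogen-like protein, differed by more than Chst8, at 6.16 ± 3.30 CPM in female CKO and 0.743 ± 0.210 CPM in female Ctrl, and at 2.90 ± 0.318 CPM in male CKO and 0.209 ± 0.108 CPM in male Ctrl.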

How the data were processed

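Unnormalized read counts by gene identifier, as the authors deposited them in 1 table of 12 libraries, were the starting point. Per the labels' protocols, each embryo's germ cells were sorted on their own. SMART-seq V4 cDNA was made into libraries with a NEBNext Ultra II kit, which leaves strand unmarked. TopHat2 2.0.11, featureCounts, Trimmomatic 0.33 and CASAVA 1.8.4 are listed in the submitters' processing notes, with the builds NCBIM37 and mm9. How reads matching several places were counted is not given in the sources used here.

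Symbols, lengths and gene order came from GENCODE M21 on GRCm38, another build than that of the counts, so gene coordinates are not given. They matched 32919 of 37991 identifiers, with 99.5% of counts. Genes were filtered with filterByExpr (minimum count 10, minimum total 15) and scaled by TMM (factors 0.926 to 1.11). The quasi-likelihood fit of edgeR 4.0.16 (R 4.3.3, limma 3.58.1) had a coefficient per group and 8 residual degrees of freedom. P-values were adjusted by Benjamini-Hochberg over all 16708 genes and called at 0.05. The fit was also run on simulated counts, with a set of genes changed in CKO. These had no sex difference and no spread particular to a gene, so the run cannot show how the p-values behave in the real data. The p-values of these data judge a group difference against the spread between these embryos, pooled over the groups and moderated across genes. Errors after ± are SD over libraries (n = 2 female CKO, 3 female Ctrl, 3 male CKO, 4 male Ctrl). Libraries of a group differed beyond counting noise (chi-square per gene 17.1 to 67.7).

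The genes, their pathway lists and the rules were chosen with earlier results of these data known. Named were the 8 genes, Ezh2, up to 4 called genes per list and contrast with the smallest adjusted p, 18 further pathway genes whatever their result, the nearest tested neighbours, and the 2 genes with the highest correlation over libraries. Of those 18, Ptgs2 was under the filter on low counts. Alternatives were other scalings, filters, DESeq2 1.42.0, the replicate number as a block, the compared groups alone, and each library left out.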

Additional observations from a re-analysis of the deposited data

Results flagged for a closer look

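Of 152 genes checked in the 4 male Ctrl libraries, 8 had 1 library whose gap to the others passed Dixon's 95% critical value, and chance gives about 1 in 20. The other groups, of 2 or 3 libraries, were not checked. Among the 8 genes of the report this was Lpar3, at 0.492 CPM in male Ctrl 4, against at most 0.124 CPM in the other male Ctrl libraries. That library brought the male groups into overlap. The others were Nfe2l2, at 57.9 CPM in male Ctrl 3, Chac2, at 15.3 CPM in male Ctrl 2, Chst9, at 0.321 CPM in male Ctrl 1, and Exoc6 and Flvcr1, at 21.6 and 14.2 CPM in male Ctrl 4. Ptgds stood apart at 6.01 CPM in male Ctrl 1 and Slc7a11 at 0.248 CPM in male Ctrl 2.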

How the results depend on the processing

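Genes called in female CKO numbered 1198, against 1973 in DESeq2 and 317 to 691 when 1 library was left out. DESeq2 was run on 27180 genes, without the filter on low counts used for edgeR, so its counts are of a larger set. In male CKO they numbered 284, against 105 with the replicate block, 63 with only the groups compared, 982 in DESeq2 and 36 to 502 with 1 library left out. For the difference between the sexes they numbered 0, against 2 without a filter on low counts, 51 in DESeq2 and 0 to 3 with 1 library left out. The control sex comparison kept to 5138 to 7060 calls around 6604. Scaling by library size alone shifted the median of all genes by 0.11 (log2) in females and split the female calls into 652 higher and 357 lower, in place of 503 and 695. The split was 912 and 793 with only the groups compared. Replicate numbers were not taken to pair embryos, since the labels give no litters. Deviations of same-numbered embryos of one sex correlated at -0.024 to 0.108. In females these values cannot decide on pairing, because the deviations of 2 CKO libraries mirror each other. The count columns of the females also carry numbers that in part differ from the replicate numbers, and what they stand for is not given. The correlations and the replicate block used the replicate numbers, so pairing by the column numbers was not tested. The replicate block gave 1054 calls in females. With it, edgeR's adjusted p was over 0.05 for Chst12 in females (0.0506) and males (0.101), for Hmox2 (0.0919), Pgrmc1 (0.0676) and Papss1 (0.0699) in males, and for Alas1 (0.0688), Alox12 (0.0503), Csad (0.0703), Gstp2 (0.0605), Hs6st1 (0.0505), Pla2g4d (0.0624), Plpp1 (0.066) and S1pr1 (0.0737) in females, and it was 0.0407 for Nqo1 in females. In males DESeq2 called 4 NRF2 genes higher and 1 lower, 3 and 1 sulfide genes, 4 and 0 sulfation genes, 3 and 0 heme genes and 2 and 0 lysophospholipid genes. In females it called 1 NRF2 gene higher and 3 lower, 1 and 2 of glutathione synthesis, 1 and 2 of the superoxide list, 2 and 2 phospholipases A2 and 3 and 3 sulfation genes. The 8 genes kept the sign of their female difference under every alternative, and the male values of Hmox1 ranged from -0.38 to 0.13. Of 463 values of the 8 genes under alternatives, 448 counted as unmoved. In the control sex comparison this meant staying on the same side of the threshold. Elsewhere it meant a shift smaller than the SD of log2 CPM within groups, not the SE. Such a shift could change the sign, as for Hmox1 in males. The cause of these moves was not tested. Sqor and Lpar3 rest on few counts in males, 31 and 33 in CKO and 20 and 23 in Ctrl over all libraries.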

Other observations

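More genes of the related pathways were called between female and male controls than between CKO and Ctrl, as was so over all tested genes. Of all tested genes, 39.5% were called between the control sexes, beside 7.17% in female CKO and 1.70% in male CKO. Of 24 fatty acid binding and uptake genes, 13 were higher and 3 lower in female Ctrl, with a median log2 fold change of 0.54 beside 0.00 over all tested genes. Scd1, which desaturates fatty acids, averaged 16.6 ± 4.16 CPM in female Ctrl and 0.551 ± 0.431 CPM in male Ctrl (a log2 fold change of 4.92 with an SE of 0.47, edgeR adjusted p = 5.49e-06). The retinoic acid carrier Crabp2 (2.47) was also higher in female Ctrl (edgeR adjusted p = 2.14e-05). Lpar1 was higher in female Ctrl (2.52, edgeR adjusted p = 6.81e-06), whereas Enpp2 was lower, at 1.84 ± 0.660 CPM in female Ctrl and 31.9 ± 18.5 CPM in male Ctrl (-4.12, 3.44e-05). Among the sulfotransferases, 10 of 34 were higher and 5 lower, with Chst2 at 3.02 and Chst15 at -3.71 (edgeR adjusted p = 6.24e-05 and 9.65e-07).

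Glutathione genes went both ways. Of 24 genes of glutathione synthesis and peroxidases, 6 were higher and 8 lower in female Ctrl. Gpx1, the cytosolic glutathione peroxidase, averaged 302 ± 36.7 CPM in female Ctrl and 893 ± 26.1 CPM in male Ctrl (a log2 fold change of -1.56 with an SE of 0.09, edgeR adjusted p = 7.25e-08). The microsomal transferase Mgst2 was at 0.241 ± 0.124 CPM in female Ctrl and 10.5 ± 4.47 CPM in male Ctrl (-5.41 with an SE of 0.48, edgeR adjusted p = 3.12e-06). Across these lists the sex comparison was made over the same controls that the CKO comparisons use, and 39.5% of all tested genes were called in it. The other lists had 3 higher and 5 lower (glutathione transferases), 8 and 6 (NRF2), 6 and 2 (superoxide, peroxide and thioredoxin), 10 and 6 (heme and iron), 7 and 8 (sulfide), 3 and 6 (lipoxygenases), 4 and 2 (phospholipases A2) and 6 and 6 (lysophospholipids).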
